A study of Mus musculus with 5 samples.

Results

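The genes described here are 9 markers of the tissue around the developing lens: Eya2, Alx4, Foxc1, Foxc2, Twist1, Prrx1 and Nfix, which encode regulators of transcription, and Pdgfrb and Cspg4, which encode cell surface proteins of pericytes. They were found by their symbols in the first column of the count table, which held 8 of the 9 among 12370 symbols. Foxc2 is not analysed here. The study sequenced lens RNA of mouse embryos at embryonic day 14 in 5 libraries. In the 3 control libraries the embryos were Cre -/- and had N-mycloxP/loxP alleles. Some control embryos may also have had c-mycloxP/loxP alleles, and the labels do not assign these to single libraries. The 2 knockout libraries came from embryos that were N-mycloxP/loxP and Mlr10-Cre +/-. Mlr10-Cre is a transgene whose lens promoter is meant to limit the recombinase to lens cells. Lens lysates of single animals were pooled before RNA was purified, and how many animals a pool held is not stated. The comparison asks which transcripts differ when N-myc is removed from lens cells. The transgene was present in the knockouts and absent from the controls, so its effects and those of the deletion cannot be told apart.

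The lens itself is built of epithelial and fibre cells only. Around it lies the periocular mesenchyme, which comes largely from the neural crest and forms the cornea's inner layers, the iris stroma, the sclera and the eyelids, and a fetal net of capillaries wraps the lens until after birth. Pericytes sit on those capillaries and are recruited by platelet-derived growth factor B, which acts on the receptor encoded by Pdgfrb. Neither the mesenchyme nor the pericytes belong to the lens proper.

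Levels are given as CPM, read counts scaled to a common library size by edgeR, and tests are edgeR's quasi-likelihood tests with Benjamini-Hochberg adjusted p over 12035 genes and a threshold of 0.05. The libraries held between 13162384 and 13746416 counts. Mycn, the deleted gene, stood at 161.9, 148.4 and 140.2 CPM in the controls and at 57.3 and 81.8 CPM in knockout replicates 1 and 2 (log2 fold change -1.11, SE 0.15, edgeR adjusted p = 0.0097; without control replicate 2 adjusted p = 0.056, the highest of its 14 alternatives, the lowest being 9.2e-11). The labels do not say where the loxP sites lie, so the Mycn count may include reads from outside the deleted part and is a limited check of the labels. All 16 lens marker genes were detected in each library, with summed levels of 100130 to 121553 CPM in the controls and of 90313 and 105449 CPM in the knockouts. The 2 knockout libraries differed from each other in the genes described here, so each is shown separately throughout. The p-values rest on the spread among these pooled samples, which the series calls biological replicates.

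Of the 8 genes, 5 were called higher in the knockouts and 0 lower, where 7.98% of all genes tested were called higher and 8.51% lower. They were Nfix, Alx4, Eya2, Cspg4 and Pdgfrb. When knockout replicate 1 was left out, 0 of the 8 genes passed edgeR's threshold (3 at an unadjusted p under 0.05), against 1.48% of all genes called higher. With knockout replicate 1 as the only knockout library, 7 of the 8 passed, all but Foxc1, against 11.8% of all genes. Such fits assume that the lone knockout library varies as the controls do. The calls also changed with the controls: 3, 0 and 1 genes passed without control replicates 1, 2 and 3, with 6, 6 and 8 at an unadjusted p under 0.05, where 8.21%, 0.175% and 1.1% of all genes were called higher. The median log2 fold change of the 8 genes was 1.58, against 0.0021 over all genes tested, and it was 0.49 without knockout replicate 1 and 2.22 without knockout replicate 2.

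**Figure D1:**
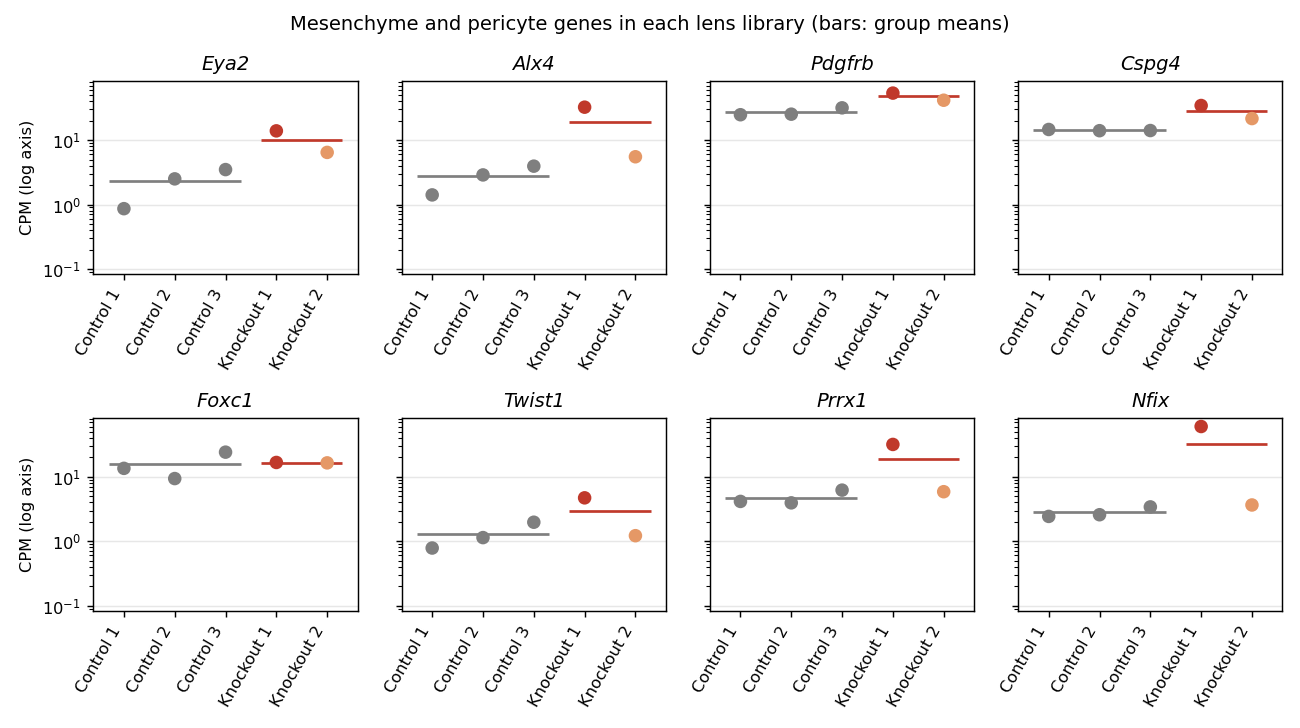
Level of each of the 8 genes (CPM, log axis) in 3 control and 2 knockout libraries, with a bar at each group mean. Knockout replicate 1 lies above all controls for every gene but Foxc1, whereas knockout replicate 2 lies within or just above the controls for Nfix, Prrx1 and Twist1.

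Nfix, a member of the nuclear factor I family of DNA-binding proteins, differed most (chromosome 8, 84699876 to 84800344, minus strand, GRCm38). Its level was 2.43, 2.58 and 3.42 CPM in the controls, 60.6 CPM in knockout replicate 1 and 3.66 CPM in knockout replicate 2. Knockout replicate 1 was 21.6-fold above the control mean and knockout replicate 2 only 1.30-fold. The groups did not overlap, but knockout replicate 2 lay just above the highest control. The fitted log2 fold change was 3.51 (SE 0.90, edgeR adjusted p = 0.038). Without knockout replicate 1 it was 0.38 (SE 0.35, adjusted p = 0.58). The call was also lost without control replicates 1, 2 or 3 (adjusted p = 0.094, 0.13 and 0.10) and with limma-voom (0.28), within a range of 7.5e-06 to 0.58 over 14 alternatives.

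Alx4, a homeodomain factor of the craniofacial and limb mesenchyme (chromosome 2, 93642384 to 93681339, plus strand), was at 1.41, 2.88 and 3.95 CPM in the controls. It stood at 32.6 CPM in knockout replicate 1 and at 5.52 CPM in knockout replicate 2, which are 11.9-fold and 2.01-fold above the control mean. Both knockouts lay above every control, while the controls themselves spanned 2.80-fold. The fitted log2 fold change was 2.79 (SE 0.67, edgeR adjusted p = 0.033). It did not pass without knockout replicate 1 (1.004, SE 0.46, adjusted p = 0.26) or without control replicates 1, 2 or 3 (0.079, 0.11 and 0.076), within a range of 0.00023 to 0.26. The gene Ext2 on the opposite strand overlaps 20312 bases of Alx4, but their exons share 0 bases, and Ext2 ranged only from 42.3 to 53.8 CPM. Nfix, Eya2 and Prrx1 are also overlapped by annotated genes on the opposite strand, such as Lyl1 for Nfix. Those genes were not analysed here, and with the strand setting not stated, the counts of Nfix, Eya2 and Prrx1 may include their reads.

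Prrx1, a paired-related homeodomain factor of limb and head mesenchyme (chromosome 1, 163245119 to 163313710, minus strand), had the same shape without passing the test. Its level was 4.15, 3.95 and 6.22 CPM in the controls, 31.9 CPM in knockout replicate 1 and 5.88 CPM in knockout replicate 2. The last value lay inside the control range, so the groups overlapped. The log2 fold change was 1.98 (SE 0.58, edgeR adjusted p = 0.052). It passed with library totals as the only scaling (2.08, adjusted p = 0.046) and without knockout replicate 2 (2.74, SE 0.23, adjusted p = 0.00017), and was 0.30 (SE 0.32, adjusted p = 0.63) without knockout replicate 1, the lowest and highest adjusted p of its alternatives being 0.00017 and 0.63.

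Twist1, a basic helix-loop-helix factor needed in the cranial mesenchyme (chromosome 12, 33957671 to 33959829, plus strand), was the least abundant in counts. The controls held 10, 15 and 26 reads and the knockouts 66 and 17, or 0.784, 1.14 and 1.97 CPM against 4.72 and 1.22 CPM. Knockout replicate 2 again fell inside the control range. The log2 fold change of 1.19 (SE 0.60) did not pass (edgeR adjusted p = 0.19). It was 1.85 (SE 0.45, adjusted p = 0.021) without knockout replicate 2 and -0.091 (SE 0.61, adjusted p = 0.95) without knockout replicate 1, which are the extremes of its alternatives.

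Eya2, a phosphatase and coactivator that works with homeodomain proteins of the sine oculis family (chromosome 2, 165595032 to 165771727, plus strand), was higher in both knockout libraries. It stood at 0.862, 2.50 and 3.49 CPM in the controls and at 13.95 and 6.46 CPM in knockout replicates 1 and 2. Both knockouts lay above all controls, by 6.10-fold and 2.82-fold over the control mean. The controls spanned 4.05-fold, the widest relative range among the 8 genes. The log2 fold change was 2.15 (SE 0.50, edgeR adjusted p = 0.030). When trends of the counts on transcript length and GC content were removed from every library, Eya2 was the only gene of the 8 that still passed (2.03, SE 0.50, adjusted p = 0.044), where 3.76% of all genes were called higher. It did not pass without knockout replicate 1 (1.49, SE 0.52, adjusted p = 0.17) or without control replicates 2 or 3 (0.10 and 0.057), within a range of 0.00091 to 0.17.

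Foxc1, a forkhead factor of the periocular mesenchyme that is required for the anterior segment of the eye (chromosome 13, 31806633 to 31812476, plus strand), did not follow the others. The controls were at 13.6, 9.41 and 24.2 CPM and the knockouts at 16.7 and 16.5 CPM, so both knockouts lay inside the control range. The log2 fold change was 0.08 (SE 0.34, edgeR adjusted p = 0.89). Its sign turned to -0.29 after removal of the length and GC trends, to -0.0098 without control replicate 1 and to -0.17 without control replicate 2, with adjusted p from 0.11 to 0.99 over its alternatives. Control replicate 3 had 2.57 times the Foxc1 level of control replicate 2.

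The other members are surface proteins of pericytes. Pdgfrb, the receptor for platelet-derived growth factor B (chromosome 18, 61045150 to 61085061, plus strand), was at 24.8, 25.3 and 31.8 CPM in the controls and at 53.9 and 41.7 CPM in the knockouts. Both knockout values lay above every control, 1.97-fold and 1.53-fold over their mean. The log2 fold change was 0.81 (SE 0.15, edgeR adjusted p = 0.018). It was 0.61 (SE 0.16, adjusted p = 0.086) without knockout replicate 1, 0.77 (adjusted p = 0.082) without control replicate 2 and 0.49 (adjusted p = 0.072) with the length and GC trends removed, within a range of 0.0002 to 0.086.

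Cspg4, the proteoglycan NG2 found on pericytes and on glial precursors (chromosome 9, 56865033 to 56899870, plus strand), had the narrowest control range of the 8 genes. It was at 14.7, 14.04 and 14.1 CPM in the controls and at 34.6 and 21.7 CPM in knockout replicates 1 and 2. Knockout replicate 1 was 2.42-fold and knockout replicate 2 was 1.52-fold above the control mean. The log2 fold change was 0.98 (SE 0.19, edgeR adjusted p = 0.020). Without knockout replicate 1 it was 0.60 (SE 0.15, adjusted p = 0.076), and without control replicates 2 or 3 the adjusted p was 0.086 and 0.068. Removal of the length and GC trends gave a log2 fold change of 0.43 (SE 0.15, adjusted p = 0.11), within a range of 0.00042 to 0.20.

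**Figure D2:**
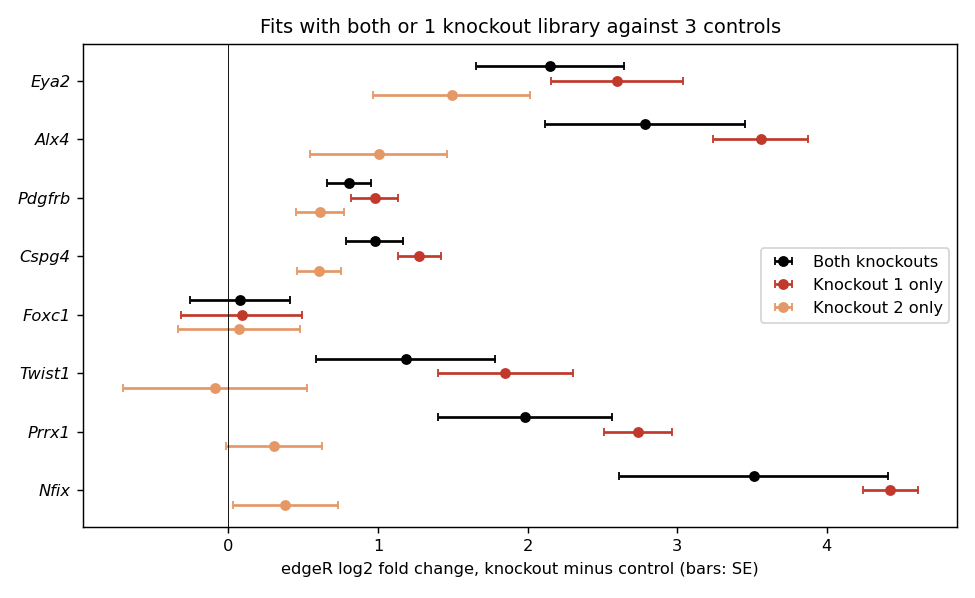
Fitted edgeR log2 fold change with its SE for each gene, from both knockout libraries or from 1 of them against the 3 controls. The estimates from knockout replicate 1 exceed those from knockout replicate 2 for all 8 genes, by the least for Foxc1 (0.09 and 0.07) and by the most for Nfix (4.42 and 0.38).

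The gap between the knockout libraries was not the same for each gene. For each gene, the rise of knockout replicate 2 over the control mean was expressed as a percentage of the rise of knockout replicate 1. It was 54.3% for Pdgfrb, 36.4% for Cspg4 and 35.7% for Eya2, but 9.31% for Alx4, 4.08% for Prrx1 and 1.47% for Nfix. In Twist1 knockout replicate 2 lay below the control mean. The value for Foxc1 is not given because neither knockout differed from the controls by more than their spread. Knockout replicate 1 was higher than knockout replicate 2 for all 8 genes, and by 2-fold or more for 5 of them (Nfix 16.6-fold, Alx4 5.89-fold, Prrx1 5.43-fold, Twist1 3.87-fold and Eya2 2.16-fold). Among all genes tested, 2.94% were at least 2-fold higher in knockout replicate 1 than in knockout replicate 2. A difference between 2 single libraries has no replicate check, and no test was made of it.

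Summed over the 6 transcription regulators, the level was 23.2, 22.5 and 43.3 CPM in the controls, 160.5 CPM in knockout replicate 1 and 39.2 CPM in knockout replicate 2. Knockout replicate 2 was below control replicate 3 in this sum, in which Foxc1 was the largest part of control replicate 3 (24.2 CPM). Without Foxc1, left out after the values had been seen, the sums were 9.64, 13.1 and 19.0 CPM in the controls, 143.7 CPM in knockout replicate 1 and 22.7 CPM in knockout replicate 2, so that both knockouts lay above every control. Summed over Pdgfrb and Cspg4, the level was 39.5, 39.4 and 45.9 CPM in the controls and 88.4 and 63.4 CPM in the knockouts, both above every control. This division by protein function was made after the values had been seen. Both knockouts lay above all controls for 5 of the 8 genes, as they did for 25.5% of all genes tested. Knockout replicate 1 alone did so for 7 of the 8 (38.1% of all genes) and knockout replicate 2 for 5 (33% of all genes).

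**Figure D3:**
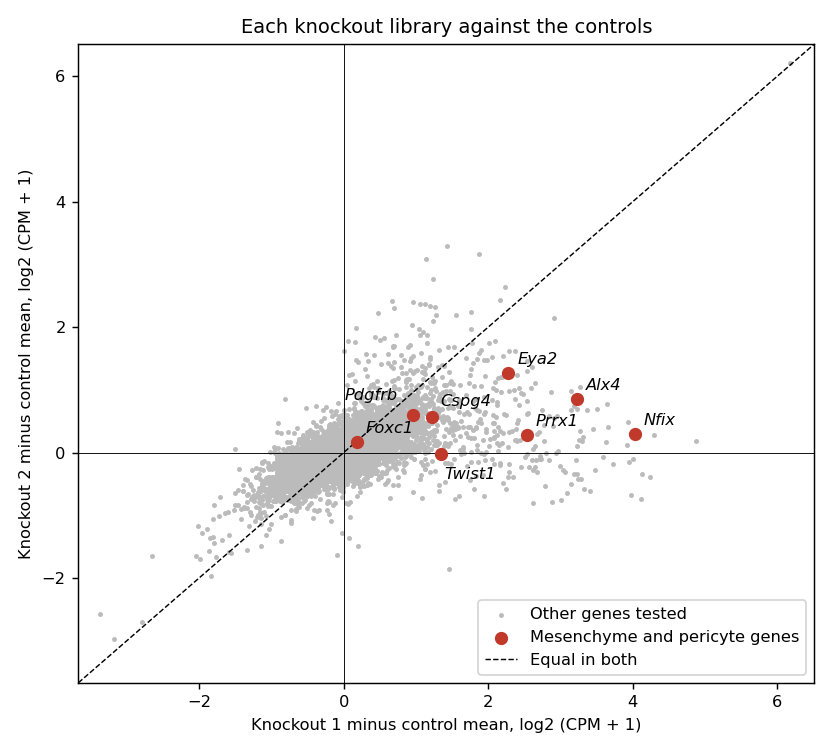
Difference of log2 (CPM + 1) between each knockout library and the control mean, knockout replicate 1 on the horizontal and knockout replicate 2 on the vertical axis, for all 12035 genes tested (grey) and the 8 genes (red). Nfix (4.02 and 0.30), Prrx1 (2.53 and 0.27) and Twist1 (1.35 and -0.018) lie to the right and close to the horizontal axis, Alx4 (3.22 and 0.86) and Eya2 (2.28 and 1.27) lie higher, and Foxc1 (0.18 and 0.16) lies near the origin.

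Levels of different genes were compared only per length, as CPM per kilobase of the longest annotated transcript. In the controls Pdgfrb led with 5.04 ± 0.71 (SD, n = 3), above Foxc1 with 2.69 ± 1.31, and their ranges did not overlap. Foxc1 and Cspg4 (1.76 ± 0.042) overlapped. Cspg4 lay above Eya2 (0.929 ± 0.54) in every control. Eya2, Twist1 (0.798 ± 0.38), Prrx1 (0.732 ± 0.19), Nfix (0.513 ± 0.097) and Alx4 (0.389 ± 0.18) followed in the order of their means, and each overlapped its neighbours in range. Among these 5 genes only Prrx1 and Alx4 had ranges that did not overlap. In knockout replicate 2 the most abundant were Pdgfrb at 7.70, Foxc1 at 2.82, Cspg4 at 2.67 and Eya2 at 2.62 CPM per kilobase, and Nfix came last at 0.668. In knockout replicate 1 Nfix was the most abundant at 11.1, followed by Pdgfrb at 9.93, Eya2 at 5.67, Prrx1 at 4.89 and Alx4 at 4.61, and Foxc1 came last at 2.86 CPM per kilobase.

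The promoters of Prrx1 and Nfix are shown because these genes had the largest ratios of knockout replicate 1 to knockout replicate 2 among those with a RefSeq promoter window, and because both windows hold the homeodomain core motif TAATTA, the kind of site that Alx4 and Prrx1 proteins can bind. The windows run from 250 bases before to 50 bases after an annotated start (RefSeq, GRCm38.p6), 5′ to 3′ on the gene's strand, with the motif in capitals. Prrx1 is at chr1:163313601-163313900 (minus strand), and for Nfix the most upstream of 4 RefSeq windows is used, at chr8:84780033-84780332 (minus strand). The span of Nfix given above (GENCODE vM21) reaches farther upstream, to 84800344, so this window lies inside that span.
Prrx1: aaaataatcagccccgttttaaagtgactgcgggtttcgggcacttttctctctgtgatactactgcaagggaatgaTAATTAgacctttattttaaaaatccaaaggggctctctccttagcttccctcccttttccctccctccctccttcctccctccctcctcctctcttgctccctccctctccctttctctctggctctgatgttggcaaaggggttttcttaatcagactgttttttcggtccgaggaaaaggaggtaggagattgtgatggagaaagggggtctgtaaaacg
Nfix: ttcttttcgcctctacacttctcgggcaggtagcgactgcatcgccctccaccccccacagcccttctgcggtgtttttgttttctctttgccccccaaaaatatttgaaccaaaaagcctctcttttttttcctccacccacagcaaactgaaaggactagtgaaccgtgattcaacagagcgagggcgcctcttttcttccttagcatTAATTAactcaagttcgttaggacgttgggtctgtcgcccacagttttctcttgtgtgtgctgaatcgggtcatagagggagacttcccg
The motif begins 173 bases before the start in Prrx1 and 40 bases before it in Nfix. Windows were found for 5 of the genes (Prrx1, Nfix, Twist1, Foxc1 and Cspg4), and TAATTA, searched on both strands, occurred in 2 of them and in 5.29% of 32851 RefSeq windows of 300 bases. The E-box CANNTG, the motif of helix-loop-helix factors such as Twist1, occurred in 0 of the 5 and in 72.3% of all windows. Of the 4 Nfix windows, TAATTA occurred in 1, the one shown, and the E-box in 2 of the others. The forkhead core GTAAACA occurred in 0 of the 5 and in 3.65% of all, and the nuclear factor I motif TTGGCA in Prrx1 and Cspg4 and in 14.1% of all. These are matches of letters and not measurements of binding.

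Of 22 further mesenchyme regulators tested, 1 rose and 0 fell, where 7.98% of all genes tested were called higher and 8.51% lower. Their median log2 fold change was 0.47. Lmx1b, a LIM homeodomain factor of the periocular mesenchyme, was at or below 0.607 CPM in the controls and at 1.79 CPM in both knockouts (log2 fold change 2.40, SE 0.56, edgeR adjusted p = 0.031). Both knockouts lay above every control for 6 of the 22 genes, against 25.5% of all genes tested. Others were high in knockout replicate 1 alone: Osr2 stood at 23.5 CPM there, at 0.43 CPM in knockout replicate 2 and at 0.31, 1.37 and 0.30 CPM in the controls, and Alx1, the other Alx gene in the table, at 13.2 CPM there, 0.359 CPM in knockout replicate 2 and 0.784, 0.759 and 0.531 CPM in the controls. Neither passed the test over both knockouts, and both were chosen here after their values were seen. The median log2 ratio of the list to the controls was 0.53 in knockout replicate 1 and -0.0057 in knockout replicate 2. Without control replicates 1, 2 or 3, 0 genes of the list passed edgeR's test (4, 6 and 11 at an unadjusted p under 0.05). In those fits 8.21%, 0.175% and 1.1% of all genes were called higher. Under DESeq2 4 passed, where 9.76% of all genes were called higher. With edgeR and levels scaled by library totals alone 4 also passed, where 12.6% of all genes were called higher.

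Of 14 further pericyte and smooth muscle genes tested, 2 rose and 0 fell, where 7.98% of all genes tested were called higher and 8.51% lower. Their median log2 fold change was 0.52. Notch3, a receptor of mural cells, was at 126.9, 98.7 and 86.2 CPM in the controls and at 170.3 and 143.3 CPM in the knockouts (log2 fold change 0.59, SE 0.16, edgeR adjusted p = 0.041). Tbx2, a T-box factor, was at 10.1 to 11.8 CPM in the controls and at 14.02 and 23.0 CPM in the knockouts (0.78, SE 0.21, adjusted p = 0.045). Rgs5, a pericyte marker, went the other way without passing the test, with 52.2, 55.9 and 75.2 CPM in the controls and 23.4 and 44.5 CPM in the knockouts (-0.85, SE 0.26, adjusted p = 0.060; named after its values were seen). With the length and GC trends removed, 0 genes of this list passed edgeR's threshold (4 at an unadjusted p under 0.05). That fit called 3.76% of all genes higher. Without control replicates 1, 2 and 3 the number was 1, 0 and 0, where 8.21%, 0.175% and 1.1% of all genes were called higher. The median log2 ratio of the list to the controls was 0.57 in knockout replicate 1 and 0.21 in knockout replicate 2.

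Of the 5 tested genes for platelet-derived growth factors and their receptors, only Pdgfrb rose, where 7.98% of all genes tested were called higher. Its ligand gene Pdgfb was at 6.82, 7.51 and 7.82 CPM in the controls and at 9.30 and 9.97 CPM in the knockouts (log2 fold change 0.38, SE 0.16, edgeR adjusted p = 0.14). Pdgfc, a ligand of the alpha receptor, was at 17.5 CPM in knockout replicate 1 and at 2.65 CPM in knockout replicate 2, against 0.941 to 2.81 CPM in the controls (adjusted p = 0.05014). Pdgfra, the alpha receptor, was at 65.8 CPM per kilobase in the controls, where Pdgfrb was at 5.04, and had a log2 fold change of 0.12 (SE 0.10, adjusted p = 0.45).

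The 10 tested paralogs of the genes include Foxc1 itself, as the paralog of Foxc2. Only Nfic was called, where 7.98% of all genes tested were called higher. Nfic rose from 115.1 ± 11.0 (SD, n = 3) to 157.3 ± 10.7 CPM (SD, n = 2), with 164.8 and 149.7 CPM in the 2 knockouts (log2 difference 0.45, SE 0.099, edgeR adjusted p = 0.026). Nfia had the pattern of Nfix on a smaller scale: 13.5, 16.2 and 20.5 CPM in the controls, 59.96 CPM in knockout replicate 1 and 19.7 CPM in knockout replicate 2 (1.25, SE 0.40, adjusted p = 0.063). Nfib was at 142.7 CPM in knockout replicate 1 and at 76.2 CPM in knockout replicate 2, against 76.3 to 100.1 CPM in the controls. From this list 0 genes passed edgeR's test without control replicates 2 or 3 (3 and 4 at an unadjusted p under 0.05). Those fits called 0.175% and 1.1% of all genes higher. The median log2 ratio of the list to the controls was 0.44 in knockout replicate 1 and 0.14 in knockout replicate 2. With the length and GC trends removed 0 passed (3 at an unadjusted p under 0.05), where 3.76% of all genes were called higher.

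The genes whose profile over the 5 libraries was nearest to the mean profile of the 8 genes, by Euclidean distance between log2 (CPM + 1) values centred on the controls among 11939 candidates, were Prickle2 (distance 0.17), Ahnak (0.23), Fblim1 (0.26), Tns1 (0.27) and Mmp14 (0.29). The mean profile itself was at -0.26, -0.10 and 0.36 in the controls and at 1.97 and 0.50 in the knockouts. Ahnak, which encodes a very large scaffold protein, was at 101.4, 105.1 and 172.2 CPM in the controls and at 477.9 and 191.7 CPM in the knockouts. Mmp14, a membrane-bound matrix protease, was at 15.8, 18.1 and 22.8 CPM in the controls and at 64.4 and 29.2 CPM in the knockouts. In all 5 genes control replicate 3 was the highest control and knockout replicate 1 the highest library. The mean profile by which they were chosen has the same order, so this is no separate observation. The 8 genes lay farther from their own mean profile, at distances of 0.63 (Prrx1) to 2.07 (Nfix).

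Markers of other cell types were examined in the same libraries, and the lists differed in which library was high. Over all genes tested, 7.98% were called higher and 8.51% lower. Of 18 fibroblast matrix genes, 9 rose and 1 fell, with a summed level of 1091 to 1530 CPM in the controls, 4350 CPM in knockout replicate 1 and 1517 CPM in knockout replicate 2. Fbn2, a microfibril protein, was at 506.1 and 239.6 CPM in the knockouts against 79.2 to 97.3 CPM in the controls, and Ogn, a small proteoglycan, fell to 119.3 and 146.8 CPM from 191.7 to 242.1 CPM. Without control replicate 2, 0 of the 18 passed edgeR's threshold (13 at an unadjusted p under 0.05), against 0.175% of all genes called higher. Without control replicates 1 or 3, 2 were called higher in each case, where 8.21% and 1.1% of all genes were. The median log2 ratio of these 18 genes to the controls was 2.88 in knockout replicate 1 and 0.51 in knockout replicate 2. Of 8 skeletal muscle genes tested 0 passed with edgeR (6 at an unadjusted p under 0.05) and 0 with DESeq2 or limma-voom. Their median log2 ratio to the controls was 3.30 in knockout replicate 1 and -0.35 in knockout replicate 2. All 10 muscle genes in the table were higher in knockout replicate 1 than in every control, as were 38.1% of all genes tested. In knockout replicate 2 this held for 0 of the 10, and for 33% of all genes. Their summed level was 60.9 to 291.8 CPM in the controls, 2227 CPM in knockout replicate 1 and 89.7 CPM in knockout replicate 2, with Ttn at 1819 CPM in knockout replicate 1. Of the 12 retina genes, 8 rose, and here knockout replicate 2 was the higher with 242.7 CPM in sum, against 118.6 CPM in knockout replicate 1 and 74.8 to 78.1 CPM in the controls. Endothelial markers, which label the vessels on which pericytes sit, had 1 edgeR call among 14 tested (Flt1, lower; 0 calls with DESeq2 or limma-voom), and the sum was 326.1 to 369.1 CPM in the controls and 332.5 and 349.1 CPM in the knockouts. In these lists 0 genes were at 0 counts in any library. In bulk RNA a larger number of cells of a type and more RNA per cell cannot be told apart, and the part of these tissues in the results above was not tested.

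**Figure D4:**
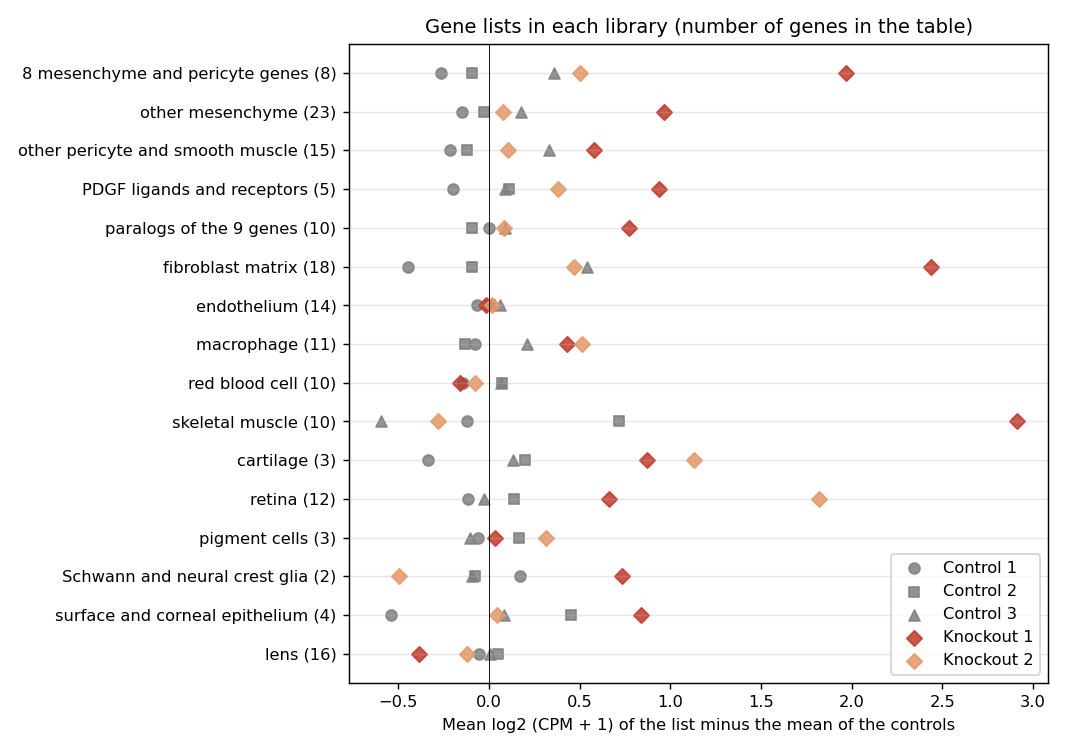
Mean log2 (CPM + 1) of each gene list minus the mean of the controls, per library (grey symbols for controls, diamonds for knockouts). The 8 genes stand at 1.97 in knockout replicate 1 and at 0.50 in knockout replicate 2, fibroblast matrix at 2.44 and 0.47, skeletal muscle at 2.91 and -0.28, retina at 0.66 and 1.82, and endothelium at -0.01 and 0.02.

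Of the remaining lists, macrophage genes were at 59.8 and 59.7 CPM in sum in the knockouts against 29.4 to 53.3 CPM in the controls, and 1 of 10 tested rose (Cd68). The counts of calls here again stand beside 7.98% of all genes called higher and 8.51% lower. Cartilage genes numbered 3 in the table, of which Sox9 rose, and the sums were 38.9 and 56.5 CPM against 17.2 to 23.8 CPM. Of 3 pigment cell genes Pmel rose and Mitf fell, and of 6 red blood cell genes tested Ermap fell. Slc4a1 of the red blood cell list, named after its values were seen, went the other way without passing the test. It was at 6.04, 7.89 and 13.8 CPM in the controls and at 14.6 and 23.7 CPM in the knockouts. Its log2 fold change was 1.05 (SE 0.34, edgeR adjusted p = 0.066). DESeq2 and the replicate block each called 1 red blood cell gene higher and 1 lower. Surface epithelium (4 genes) and Schwann cell genes (2 genes) had 0 calls in the edgeR fit reported (1 and 0 at an unadjusted p under 0.05) and 0 with DESeq2. Limma-voom, and edgeR with library totals as the only scaling, each called 1 surface epithelium gene higher. Hba-a1, Hba-a2 and Hbb-bt of the red blood cell list were listed at 0 in each library. Of the 16 lens genes 5 fell, among them Bfsp1 and Cryab, and 1 rose. Without control replicate 2 the endothelium, macrophage, retina, cartilage, pigment cell and lens lists had 0 calls with edgeR (1, 4, 11, 2, 2 and 8 at an unadjusted p under 0.05), and Ermap was the single call left in the red blood cell list. That fit called only 0.175% of all genes higher and 0.142% lower, so 0 calls in a short list are not particular to these lists. Without control replicate 3 the retina list had 1 call and the lens list 1, where 1.1% of all genes were called higher and 0.875% lower. The median log2 ratio of the retina list to the controls was 0.57 in knockout replicate 1 and 2.08 in knockout replicate 2. For the lens list it was -0.30 and -0.086.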

How the data were processed

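The deposited file is a single count table with gene symbols in rows. Its values are whole numbers whose sum differs between libraries. HTSeq 0.6.1, TopHat2 2.0.13, Trim Galore 0.3.7, DESeq2, Cufflinks 2.2.1 and the mm10 build appear, without stated roles, per the submitters' processing notes. How symbols were chosen, the annotation and the strand setting are not stated there, so reads of overlapping genes on opposite strands cannot be told apart. Groups came from the sample titles.

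The tests used edgeR 4.0.16 in R 4.3.3: filterByExpr by group (minimum count 10, 335 symbols removed), TMM scaling, glmQLFit and glmQLFTest with no covariate (biological coefficient of variation 14.1%). The SE of a log2 fold change is its size over the root of the F statistic. The script was tested on simulated data. Alternatives used DESeq2 1.42.0, limma-voom (limma 3.58.1), other scalings and filters, a replicate block, leaving out each library, and an offset for each library's loess trend on transcript length and GC content (GENCODE vM21, known for 98.1% of genes tested and all 8 genes). Positions are from the same release. Libraries of a group differed by more than sampling noise (chi-square over degrees of freedom 9.98 to 23.4). The genes, the 15 other lists and the rules were chosen with earlier results of these data known. Named genes were the 8 genes, Mycn, the called members of each list with the smallest adjusted p (up to 4, or 2 for cell type lists; where none was called, 2 by level) and the 5 genes nearest in profile. One gene of the list of further mesenchyme regulators is not reported here and was left out of that list's counts.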

Additional observations from a re-analysis of the deposited data

How the results depend on the processing

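The number of genes called over the whole table was 1984 with all libraries, 995 with the replicate block, 1196 after removal of the length and GC trends, 316 with both, and between 38 and 2717 when 1 library was left out (38 without control replicate 2, 237 without control replicate 3, 292 without knockout replicate 1). With library totals as the only scaling 70.3% of the calls were higher, and 37.9% after removal of the length and GC trends, against 48.4% in the fit reported. The number of the 8 genes called higher was 5, and 3 with limma-voom, 2 with the replicate block, 1 with the length and GC trends removed, 0 with both (edgeR, 6 at an unadjusted p under 0.05) and between 0 and 7 when 1 library was left out. With DESeq2, DESeq2's size factors, no filter or a mean CPM of at least 1 it was 5. Their median log2 fold change lay between 0.49 and 2.22 when 1 library was left out. Mycn lay between -1.39 and -0.87 in those fits and missed the threshold without control replicate 2. The sign turned for Foxc1 in the fit corrected for length and GC content (-0.29) and without control replicates 1 (-0.0098) and 2 (-0.17), with -0.17 to 0.54 over the fits without 1 library, and for Twist1 without knockout replicate 1 (-0.091), with -0.091 to 1.85 over those fits. The median log2 ratio of knockout replicates 1 and 2 to the controls was 1.81 and 0.43, and 2.05 and 0.46 with a pseudocount of 0.5. Leaving out each control there was chosen after seeing the data and gave 1.58 to 2.05 and 0.38 to 0.53. The labels do not say that replicate numbers pair the samples. The deviations of same-numbered libraries from their group means had correlations of -0.07 and 0.04. Control replicate 3 has no knockout of its number, so the replicate block fits that control by a term of its own. The group difference in that fit then rests on replicates 1 and 2 of each group. For these reasons the replicate block says nothing of a weaker effect. The cause of these changes was not tested.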

Other observations

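Some mesenchyme and pericyte genes, named here after their values were seen, were high in control replicate 3 or in knockout replicate 1. Vtn, a matrix protein gene of brain pericytes, had 174 counts in control replicate 3, 1 and 4 in control replicates 1 and 2, and 0 and 4 in the knockouts. Tbx18, a T-box factor of mural cells and mesenchyme, was at 9.33 CPM in control replicate 3 and at 9.52 CPM in knockout replicate 1, against 0.784 and 1.29 CPM in control replicates 1 and 2 and 1.15 CPM in knockout replicate 2. Osr1, a zinc finger factor of embryonic mesenchyme, was at 3.57 CPM in control replicate 3 and at 13.6 CPM in knockout replicate 1, and at or below 0.379 CPM in the other 3 libraries. Meox2, a homeodomain factor of muscle and mesenchyme precursors, had 56 counts in knockout replicate 1 and between 1 and 6 in each of the other libraries.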
